A study of Rattus norvegicus with 12 samples.

Results

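The genes described here encode the enzymes of the tricarboxylic acid (TCA) cycle and of mitochondrial fatty acid oxidation, measured in the mammary gland of ovariectomised rats. The list held 38 genes, chosen by name. Each gene was read from the array feature (probe set) that carried its symbol alone, and where a gene had several such probe sets the one with the highest mean intensity was used. Of the 38 genes, 37 had such a probe set, out of 14506 genes with a probe set of their own on the array. Dlst was left out because its probe set was shared with Afdn. The 37 comprised 4 components of the pyruvate dehydrogenase complex, 15 of the 16 TCA cycle genes listed, 4 genes of fatty acid activation and carnitine transport, 11 of beta-oxidation and 3 that pass electrons from beta-oxidation to the respiratory chain.

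Female Lewis rats were ovariectomised at about 10 weeks of age, and treatment began 14 days later, so that the rats of all 4 groups lacked ovaries. Each rat received 3 subcutaneous treatments over 48 h, and the gland was taken 24 h after the last. The E2+3-MC group received estradiol (E2), the ovarian estrogen, at 4 µg/kg/day and 3-methylcholanthrene (3-MC) at 15 mg/kg/day, which as a polycyclic aromatic hydrocarbon activates the aryl hydrocarbon receptor (AHR). The E2 group received 4 µg/kg/day of E2 alone, the 3-MC group 15 mg/kg/day of 3-MC alone, and the vehicle group the mixture of DMSO and castor oil in which the substances were dissolved. Each group held 3 rats with 1 array per rat. The RNA came from whole gland, which holds fat, epithelium, stroma and, in some dissections, skeletal muscle. In such samples fewer cells of a type and less RNA per cell cannot be told apart.

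The pyruvate dehydrogenase complex turns pyruvate into acetyl-CoA, and the TCA cycle oxidises acetyl-CoA to carbon dioxide while it loads electrons onto carriers for the respiratory chain. Fatty acids reach the same cycle by another way: they are activated to acyl-CoA, carried into the mitochondrion as acylcarnitines and shortened by beta-oxidation. In the fat of the mammary gland citrate from the cycle is also exported to the cytosol as the starting material for new fatty acids. Muscle fibres are rich in all of these enzymes, which is why the muscle transcripts Acta1 (skeletal actin) and Ckm (muscle creatine kinase) were followed alongside them.

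Promoters, taken as 250 bases before to 50 bases after the annotated start in the RefSeq annotation of the rat assembly GRCr8, were found for 33 of the 37 genes. The sequences of Cpt1a and Pdhb are shown because these genes had the largest positive and negative differences in the comparison of all rats with and without E2. The capitals mark the AHR core GCGTG, which was searched on both strands, as was every motif below.

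Cpt1a, chr1:209995910-209996209, plus strand: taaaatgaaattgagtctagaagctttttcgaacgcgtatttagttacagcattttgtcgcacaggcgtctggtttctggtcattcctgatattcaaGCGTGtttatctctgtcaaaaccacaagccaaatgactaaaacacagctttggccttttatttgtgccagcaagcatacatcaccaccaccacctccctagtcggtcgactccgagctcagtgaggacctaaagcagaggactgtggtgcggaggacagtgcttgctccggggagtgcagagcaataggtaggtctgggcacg
Pdhb, chr15:19182539-19182838, plus strand: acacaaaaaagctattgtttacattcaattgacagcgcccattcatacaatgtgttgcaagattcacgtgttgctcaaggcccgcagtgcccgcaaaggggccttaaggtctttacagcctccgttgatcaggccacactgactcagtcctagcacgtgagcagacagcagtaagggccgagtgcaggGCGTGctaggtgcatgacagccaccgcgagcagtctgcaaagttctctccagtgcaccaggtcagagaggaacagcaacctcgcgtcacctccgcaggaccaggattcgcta

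The AHR core lay in 19 of the 33 promoters (57.6%), against 31.1% of the 27457 rat promoters. The 33 promoters were also richer in G and C than rat promoters in general, with a median of 60.3% against 52.3% and a median of 20 CG dinucleotides against 7, and the core itself holds a CG. The full estrogen receptor element (GGTCA, any 3 bases, TGACC) was in 0 of the 33, against 7 of all 27457 promoters (0.0255%). It is so rare in windows of this length that 0 in 33 does not set these genes apart. The element of the estrogen-related receptors (T, any base, AAGGTCA) was in 1, that of Sdhd, against 1.15% of all. These matches are descriptions of letters and not of binding.

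Hadha and Hadhb, the subunits of the mitochondrial trifunctional protein, face away from each other on chromosome 6 with annotated starts 301 bases apart. The Hadha promoter is shown because 200 of its bases, in capitals, also belong to the promoter of Hadhb, which is read from the other strand.

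Hadha, chr6:31907551-31907850, plus strand: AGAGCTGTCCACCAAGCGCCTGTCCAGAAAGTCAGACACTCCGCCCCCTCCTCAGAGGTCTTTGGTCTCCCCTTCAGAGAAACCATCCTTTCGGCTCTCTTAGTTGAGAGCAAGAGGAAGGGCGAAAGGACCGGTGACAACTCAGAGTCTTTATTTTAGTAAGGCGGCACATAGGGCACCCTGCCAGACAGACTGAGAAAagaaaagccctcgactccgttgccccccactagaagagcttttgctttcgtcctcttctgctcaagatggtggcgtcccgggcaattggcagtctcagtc

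The median intensity of the arrays lay between 85.7 and 109.5, and the arrays correlated with each other at 0.934 to 0.985 on the log2 scale. Of 29214 probe sets, 23371 passed a filter that removed the lowest 20% by mean level, and all 37 genes were among them. Genes were tested in limma on log2(intensity + 16), a scale that understates the change of dim genes, and passed if the Benjamini-Hochberg adjusted p over all 23371 probe sets was under 0.05 and the difference was at least 1.5-fold. Skeletal muscle transcripts stood apart between rats. Acta1 intensity was 263, 518 and 136 in the E2+3-MC rats, 1345, 220.3 and 918 in the E2 rats, 3131, 5412 and 84.2 in the 3-MC rats, and 4223, 6979 and 102 in the vehicle rats, so that rat 3 of the 3-MC and vehicle groups lay far below the other rats of its group.

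None of the 37 genes passed in any of the 6 comparisons of the design. With E2 against vehicle 1.58% of all probe sets passed. The share was 0.163% for E2+3-MC against vehicle, 0.111% for E2+3-MC against 3-MC, and 0% for the interaction of E2 and 3-MC, for 3-MC against vehicle and for E2+3-MC against E2. The last share depended on the model. A limma fit to only the E2+3-MC and E2 arrays passed 269 probe sets higher and 90 lower, with 0 of the 37 genes among them. At an unadjusted p under 0.05 in limma, 2 of the 37 genes were higher and 7 lower with E2 than with vehicle, against 6.82% and 4.89% of all probe sets. For E2+3-MC against vehicle 1 was higher and 5 lower (6.99% and 2.73% of all), and for E2+3-MC against 3-MC 1 was higher and 8 lower (2.81% and 2.22% of all). For 3-MC against vehicle, the interaction and E2+3-MC against E2 the count was 0 in both directions, against 4.24%, 4.42% and 8.77% of all probe sets in either direction. Other settings of the same E2 comparison let through 0 to 3 genes, which were Cpt1a, Acsl1 and Pdhb in each case: Cpt1a passed in 7 of 26 settings, Acsl1 in 4 and Pdhb in 4. Leaving out 3-MC rat 2 changes no E2 or vehicle array, but it changes the estimate of the spread and the probe sets that pass the filter. That fit let Cpt1a and Acsl1 pass (adjusted p 0.0102 and 0.0408 in limma). Leaving out 3-MC rat 1 let Cpt1a pass (0.0376), and leaving out vehicle rat 2 let Pdhb pass (0.0164).

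**Figure D1:**
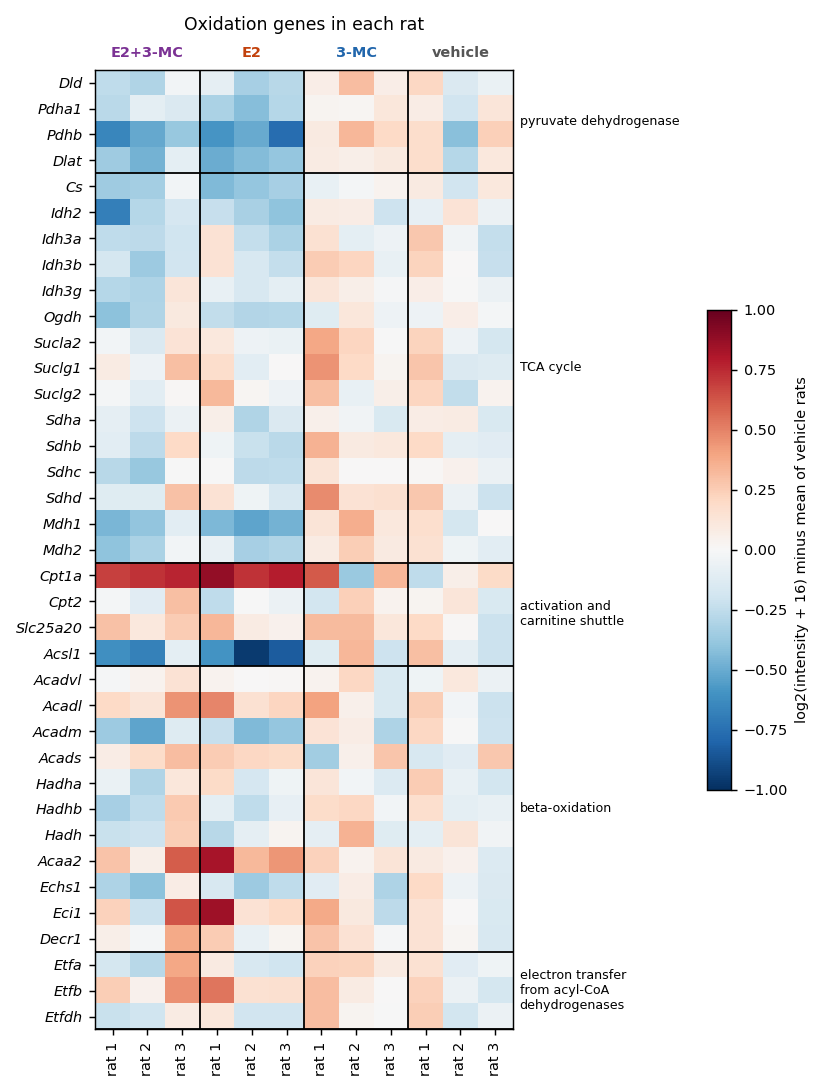
Heat map of the 37 genes (down the page, by enzyme group) in each of the 12 rats (across, by treatment group). Colour gives log2(intensity + 16) minus the mean of the vehicle rats, from -0.96 to 0.88; the pyruvate dehydrogenase genes are mostly below 0 and Cpt1a is above 0 in all 6 rats that received E2.

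The levels varied little. The highest rat exceeded the lowest by 1.30-fold for Acadvl, the smallest ratio among the 37, and by 2.51-fold for Cpt1a, the largest. The median log2 difference of the 37 genes was -0.11 for E2 against vehicle, where the median of all probe sets was 0.02, and 26 of the 37 values were negative. It was -0.11 for E2+3-MC against vehicle (0.07 for all probe sets), -0.21 for E2+3-MC against 3-MC (0.02), 0.04 for E2+3-MC against E2 (0.05) and 0.10 for 3-MC against vehicle (0.06). These medians depended on single rats: leaving out 1 rat gave -0.18 (without vehicle rat 3) to -0.06 (without vehicle rat 1) for E2 against vehicle, -0.21 (without E2+3-MC rat 3) to -0.03 (without vehicle rat 1) for E2+3-MC against vehicle, -0.28 to -0.13 (without E2+3-MC rat 2) for E2+3-MC against 3-MC, and 0.06 (without vehicle rat 3) to 0.17 (without vehicle rat 1) for 3-MC against vehicle. For E2+3-MC against E2 the sign itself turned, with -0.09 without E2+3-MC rat 3 and 0.09 without E2+3-MC rat 2. By enzyme group, the median for E2 against vehicle was -0.39 for pyruvate dehydrogenase, with 4 of 4 values negative, and -0.14 for the TCA cycle, with 13 of 15 negative. It was 0.02 for activation and transport, 0.02 for beta-oxidation and -0.09 for the electron transfer flavoproteins, with values of both signs in each.

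**Figure D2:**
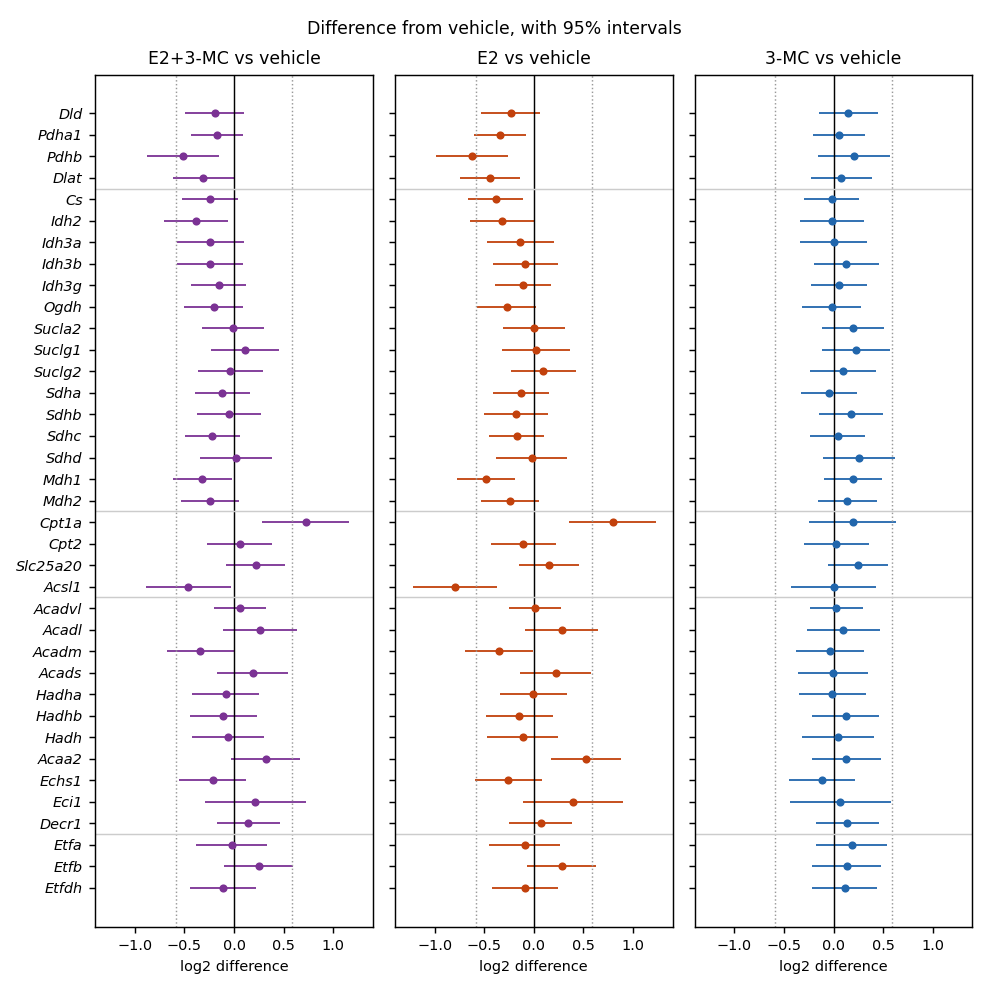
Log2 difference of each of the 37 genes from vehicle, for E2+3-MC, E2 and 3-MC, with the 95% interval of the limma fit; dotted lines mark 1.5-fold in either direction. Acsl1 and Cpt1a lie farthest from 0 with E2 alone, at -0.79 and 0.79, and the points for 3-MC alone lie between -0.12 and 0.26.

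Of the pyruvate dehydrogenase genes, none passed between E2 and vehicle, and Pdhb had the largest difference. Pdhb encodes the beta subunit of the component that decarboxylates pyruvate, and its intensity was 531, 565 and 469.6 in the E2 rats, against 917, 603 and 956 in the vehicle rats. Every E2 rat was below every vehicle rat, and vehicle rat 2 was close to the E2 rats. The log2 difference was -0.62 (SE 0.17), and the limma adjusted p was 0.101. With 3-MC in both groups the picture was alike: Pdhb was 508, 564 and 618 in the E2+3-MC rats, against 863, 1023 and 931 in the 3-MC rats, with no overlap, a log2 difference of -0.72 (SE 0.17) and an adjusted p of 0.246 in limma.

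Dlat, the acetyltransferase core of the complex, had intensities of 246, 257 and 267 in the E2 rats, against 401, 288 and 382 in the vehicle rats. It was 273, 251 and 329 in the E2+3-MC rats, against 374, 369 and 379 in the 3-MC rats. Neither pair of groups overlapped, and the log2 differences of -0.44 and -0.39 had adjusted p of 0.181 and 0.891 in limma. Pdha1, the alpha subunit that carries the regulatory phosphorylation sites, was at 462, 429 and 475 in the E2 rats, against 611, 505 and 634 in the vehicle rats. It was at 477, 543 and 523 in the E2+3-MC rats, all above the E2 rats, and at 593, 588 and 628 in the 3-MC rats. The log2 difference of Pdha1 between E2 and vehicle was -0.34 (adjusted p 0.24 in limma), and second probe sets of Dlat and Pdha1 gave -0.41 and -0.31. Dld, the dehydrogenase that the complex shares with oxoglutarate dehydrogenase, averaged 753 ± 78.6 in the E2+3-MC rats, 732 ± 68.3 in the E2 rats, 958 ± 98.1 in the 3-MC rats and 864 ± 114 in the vehicle rats (SD, n = 3 each), and its E2 and vehicle rats overlapped.

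None of the genes of the TCA cycle proper passed either. Cs, citrate synthase, which opens the cycle, had intensities of 664, 687 and 717 in the E2 rats, against 966, 788 and 973 in the vehicle rats, and the groups did not overlap. The log2 difference was -0.39 (SE 0.13; limma adjusted p 0.206), but a second, dimmer probe set of Cs gave -0.08. With 3-MC, Cs was 704, 712 and 886 in the E2+3-MC rats, against 857, 893 and 927 in the 3-MC rats, and the groups overlapped.

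Mdh1, the cytosolic malate dehydrogenase of the malate-aspartate shuttle, had the largest difference among the TCA cycle genes. It was at 1533, 1454 and 1508 in the E2 rats, against 2356, 1858 and 2108 in the vehicle rats, and at 1525, 1593 and 1947 in the E2+3-MC rats, against 2293, 2700.1 and 2262 in the 3-MC rats. Neither pair overlapped, and the log2 differences were -0.48 (adjusted p 0.116) and -0.52 (adjusted p 0.414 in limma). Its mitochondrial counterpart Mdh2 averaged 1367 ± 194 in the E2+3-MC rats, 1372 ± 137 in the E2 rats, 1785 ± 119 in the 3-MC rats and 1620.0 ± 154 in the vehicle rats (SD, n = 3 each). The log2 difference of Mdh2 between E2 and vehicle was -0.24 (limma adjusted p 0.56).

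Among the isocitrate dehydrogenases, Idh2, the mitochondrial NADP-dependent enzyme, was at 493, 461 and 436 in the E2 rats, against 549, 640.1 and 559 in the vehicle rats. In the E2+3-MC rats it was at 355, 473 and 517, all below the vehicle rats, and in the 3-MC rats at 615, 614 and 502. The log2 difference from vehicle was -0.38 for E2+3-MC and -0.32 for E2 (adjusted p 0.455 and 0.43 in limma). The 3 subunits of the NAD-dependent enzyme lay closer together. Idh3a, the catalytic subunit, was at 324, 323 and 337 in the E2+3-MC rats, 432, 329 and 309.9 in the E2 rats, 435, 363 and 376 in the 3-MC rats, and 472, 381 and 329 in the vehicle rats. Idh3b was at 699, 611 and 690.2 in the E2+3-MC rats, 874, 707 and 668 in the E2 rats, 947, 918 and 749 in the 3-MC rats, and 924, 793 and 673 in the vehicle rats. For both subunits all E2+3-MC rats lay below all 3-MC rats, while the E2 and vehicle rats overlapped.

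Ogdh, which decarboxylates oxoglutarate, was at 561, 609 and 804 in the E2+3-MC rats, 631, 612 and 615 in the E2 rats, 692, 813 and 727 in the 3-MC rats, and 727, 788 and 742 in the vehicle rats. The E2 rats lay below the vehicle rats, by -0.27 on the log2 scale (limma adjusted p 0.481), and E2+3-MC rat 3 reached the level of the vehicle rats. The succinyl-CoA ligase genes Sucla2, Suclg1 and Suclg2 had log2 differences between E2 and vehicle of -0.00, 0.02 and 0.10. In succinate dehydrogenase, which is both a cycle enzyme and a respiratory complex, the catalytic subunit Sdha was at 542, 497 and 553 in the E2+3-MC rats, 602, 464 and 521 in the E2 rats, 599, 561 and 518 in the 3-MC rats, and 608, 611 and 516 in the vehicle rats, with overlap between all groups. Sdhd, a membrane anchor subunit, was at 624, 622 and 837 in the E2+3-MC rats, 753, 658 and 605 in the E2 rats, 946, 751 and 759 in the 3-MC rats, and 824, 652 and 582 in the vehicle rats. With 0.26 on the log2 scale Sdhd had the largest positive difference of the 37 genes for 3-MC against vehicle (95% interval -0.10 to 0.62; limma adjusted p 0.92), and these groups overlapped.

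Activation and carnitine transport held the largest differences of either sign. Acsl1, the main long-chain acyl-CoA synthetase of fat and muscle, was at 1403, 1089 and 1190.4 in the E2 rats, against 2627, 2002 and 1829.8 in the vehicle rats. The groups did not overlap, and the log2 difference was -0.79 (SE 0.20), with an adjusted p of 0.0701 in limma. In the E2+3-MC rats it was at 1384, 1327 and 1990.1, against 1952, 2689 and 1842 in the 3-MC rats, and E2+3-MC rat 3 lay within the 3-MC range. Acsl1 also had the largest positive difference of the 37 genes for E2+3-MC against E2, 0.33 (95% interval -0.09 to 0.76), with an adjusted p of 0.663.

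Cpt1a encodes the liver isoform of the outer-membrane carnitine palmitoyltransferase, the step at which malonyl-CoA holds back fatty acid entry. Its intensity was 401, 358 and 376 in the E2 rats, against 175, 221 and 244 in the vehicle rats. In the E2+3-MC rats it was 349.6, 359 and 370.4, against 331, 160.1 and 271 in the 3-MC rats. All 6 rats with E2 lay above all 6 without, although 3-MC rat 1 came close. The log2 differences were 0.79 for E2 against vehicle (SE 0.20; limma adjusted p 0.0794), 0.72 for E2+3-MC against vehicle (adjusted p 0.321) and 0.53 for E2+3-MC against 3-MC (adjusted p 0.915).

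The other carnitine genes stayed close to each other across groups. Cpt2, the inner-membrane transferase, was at 347, 325 and 439 in the E2+3-MC rats, 293, 353 and 337 in the E2 rats, 308, 418 and 361 in the 3-MC rats, and 360.0, 386 and 316 in the vehicle rats, and all groups overlapped. Slc25a20, the carrier that exchanges acylcarnitine for carnitine, averaged 221 ± 16.4 in the E2+3-MC rats, 212 ± 25.3 in the E2 rats, 227 ± 19.4 in the 3-MC rats and 189 ± 29.3 in the vehicle rats (SD, n = 3 each). The log2 differences between E2 and vehicle were -0.11 for Cpt2 (95% interval -0.43 to 0.22) and 0.15 for Slc25a20 (95% interval -0.14 to 0.45).

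**Figure D3:**
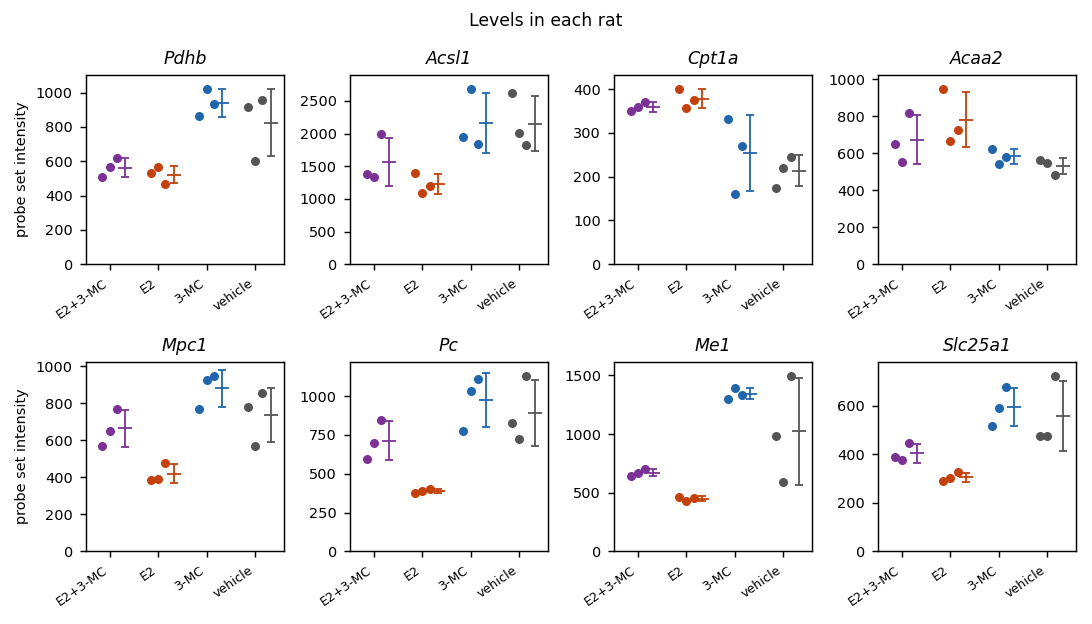
Intensity (linear axis from 0) of Pdhb, Acsl1, Cpt1a and Acaa2 in the upper panels and of Mpc1, Pc, Me1 and Slc25a1 in the lower panels, 1 point per rat, with the group mean ± SD. All 6 rats with E2 are above all 6 without for Cpt1a, and for Pc, pyruvate carboxylase, the E2 rats lie between 378 and 400.2 while the vehicle rats lie between 721 and 1130.0.

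In beta-oxidation the differences between E2 and vehicle had both signs. Acaa2, the thiolase that releases acetyl-CoA in the last step, was at 949.9, 668 and 728 in the E2 rats, against 565, 548 and 482 in the vehicle rats, without overlap. It was at 650.2, 554 and 816 in the E2+3-MC rats and at 625, 543 and 581 in the 3-MC rats, which overlapped. The log2 difference of Acaa2 was 0.53 for E2 against vehicle (SE 0.16; limma adjusted p 0.158) and -0.21 for E2+3-MC against E2 (95% interval -0.56 to 0.14), where it was the lowest value of the 37 genes.

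The 4 acyl-CoA dehydrogenases catalyse the first step for fatty acids of falling chain length. Acadvl, for very long chains, had nearly the same level in every group: 283, 293 and 317 in the E2+3-MC rats, 293, 286 and 287 in the E2 rats, 292, 333 and 255 in the 3-MC rats, and 277, 308 and 273 in the vehicle rats. Acadm, for medium chains, was at 461, 411 and 545 in the E2+3-MC rats, 508, 437 and 453 in the E2 rats, 658, 629 and 478 in the 3-MC rats, and 692, 597 and 517 in the vehicle rats. The E2 rats lay just below the vehicle rats, by -0.35 on the log2 scale (limma adjusted p 0.404). Acads, for short chains, was at 106, 115 and 127 in the E2+3-MC rats, 122, 118 and 116 in the E2 rats, 74.8, 104 and 124 in the 3-MC rats, and 87.6, 90.7 and 124 in the vehicle rats, and all groups overlapped. Acadl, for long chains, had a log2 difference of 0.28 between E2 and vehicle (95% interval -0.09 to 0.65).

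Echs1, the enoyl-CoA hydratase of the second step, was at 381, 353 and 502 in the E2+3-MC rats, 425, 367 and 397 in the E2 rats, 439, 502 and 382 in the 3-MC rats, and 549, 459 and 428 in the vehicle rats. Its log2 difference of -0.12 for 3-MC against vehicle (95% interval -0.45 to 0.22) was the lowest of the 37 genes in that comparison. Hadha, the trifunctional protein subunit with hydratase and dehydrogenase activity, was at 1194, 1013 and 1355 in the E2+3-MC rats, 1432, 1108 and 1214 in the E2 rats, 1364, 1226 and 1138 in the 3-MC rats, and 1494, 1189 and 1098 in the vehicle rats. All groups overlapped, and the difference between E2 and vehicle was -0.01 (95% interval -0.34 to 0.33). Hadhb, its thiolase partner, and Hadh, the dehydrogenase for shorter chains, had log2 differences of -0.14 and -0.11. Eci1 and Decr1, which deal with the double bonds of unsaturated fatty acids, had values of 0.39 (95% interval -0.11 to 0.90) and 0.07.

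Electrons from the acyl-CoA dehydrogenases pass to the flavoprotein made of Etfa and Etfb and then to the quinone pool through Etfdh. Etfb averaged 1602 ± 231 in the E2+3-MC rats, 1642 ± 264 in the E2 rats, 1474 ± 168 in the 3-MC rats and 1347 ± 204 in the vehicle rats (SD, n = 3 each). Its log2 difference between E2 and vehicle was 0.28 (95% interval -0.07 to 0.63), while Etfa and Etfdh both had -0.09.

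For E2 against vehicle 2 of the 37 genes, Cpt1a and Acaa2, were above in every rat and 11 were below, against 10.1% and 8.05% of all probe sets. The 11 were Cs, Idh2, Idh3g, Ogdh, Mdh1, Pdha1, Pdhb, Dlat, Acadm, Echs1 and Acsl1. For E2+3-MC against 3-MC, Cpt1a was above in every rat (4.48% of all probe sets) and 9 genes were below (3.48% of all), namely Idh3a, Idh3b, Dld, Sdhc, Mdh1, Mdh2, Pdha1, Pdhb and Dlat. Cpt1a was above in every rat, Idh2 below in every rat, for E2+3-MC against vehicle (10.5% and 3.68% of all). For E2+3-MC against E2, Pdha1 alone of the 37 was above in every rat and 0 were below (12% and 5.93% of all). For 3-MC against vehicle no gene was free of overlap in either direction (4.71% and 2.31% of all).

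As 0 of the 37 genes passed between 3-MC and vehicle, the 6 rats with E2 were also compared with the 6 rats without, in the same model; this comparison was added after the other results had been seen. In it 3 of the 37 genes passed, 1 higher and 2 lower, where 1.12% of all probe sets passed, 0.757% higher and 0.359% lower. At an unadjusted p under 0.05, 2 of the 37 were higher and 12 lower (6.63% and 5.71% of all). Pdhb fell, with a log2 difference of -0.67 (SE 0.12; limma adjusted p 0.0116), and passed under each of the 23 alternative settings tried for this comparison, with adjusted p between 0.00104 and 0.043. Cpt1a rose by 0.66 (SE 0.14; adjusted p 0.0356) and Acsl1 fell by 0.63 on the log2 scale (SE 0.14; adjusted p 0.0404). Cpt1a and Acsl1 each passed under 11 of the 23 settings. Leaving out 1 rat kept the call of Cpt1a in 3 of 12 fits, those without vehicle rat 3, 3-MC rat 1 or 3-MC rat 3 (adjusted p 0.00932 to 0.10 over the 12), and that of Acsl1 in 4 of 12, those without vehicle rat 3, 3-MC rat 1, 3-MC rat 3 or E2+3-MC rat 3 (0.0256 to 0.126). The adjusted p of Acsl1 was 0.0541 with the rat number as a block. With the Acta1 level of the rat as a covariate Pdhb passed alone of the 37 (adjusted p 0.0111), and Cpt1a and Acsl1 had 0.087 and 0.0988, with log2 differences of 0.59 and -0.55 that were close to those without the covariate. Mdh1 had an adjusted p of 0.0205 but a log2 difference of -0.50, which is 1.41-fold and under the fold threshold. All 4 pyruvate dehydrogenase genes and all 15 TCA cycle genes had negative differences, with medians of -0.35 and -0.21, while 6 of the 11 beta-oxidation genes had positive ones. In every rat with E2 Cpt1a was above every rat without (0.68% of all probe sets), and 0 genes were below in every rat (0.492% of all).

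For 3-MC the differences were small. Their median SE of 0.15 equals that for E2 against vehicle by construction, because the 4 groups of 3 rats share 1 estimate of the spread. In 35 of the 37 genes the 95% interval of the difference between 3-MC and vehicle lay within 1.5-fold in both directions, and likewise in 35 genes for E2+3-MC against E2. Over both E2 states together, the 6 rats with 3-MC and the 6 without differed by less than 1.5-fold throughout the interval in 37 of 37 genes, 0 passed (0% of all probe sets), and the differences ran from -0.06 to 0.18. The interaction, which asks whether the difference made by E2 changed with 3-MC, was estimated less well, with 20 of 37 intervals within 1.5-fold. Its extremes were -0.34 for Acaa2 and 0.33 for Acsl1, both with an adjusted p of 0.982 in limma. For E2 against vehicle 23 of 37 intervals lay within 1.5-fold, and 3 genes, Acsl1, Cpt1a and Pdhb, had estimates beyond it. The comparisons of E2 and of E2+3-MC with vehicle share their vehicle rats.

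Pyruvate import and citrate export are the steps on either side of the cycle enzymes. Of 21 other genes of the TCA cycle and of pyruvate entry, 4 fell and 0 rose with E2 against vehicle, where 0.287% of all probe sets fell and 1.3% rose. Pc, pyruvate carboxylase, which makes oxaloacetate to refill the cycle, was at 378, 390.3 and 400.2 in the E2 rats, against 826, 721 and 1130.0 in the vehicle rats. The log2 difference was -1.14 (SE 0.18; limma adjusted p 0.00802), and the call held in all 12 fits that left out 1 rat. In the E2+3-MC rats Pc was at 595, 696 and 845, above every E2 rat, and in the 3-MC rats at 777, 1032 and 1109; the difference of 0.83 between E2+3-MC and E2 had an adjusted p of 0.295.

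Mpc1, a subunit of the carrier that brings pyruvate into mitochondria, was at 386, 392 and 478 in the E2 rats, against 782, 571 and 857 in the vehicle rats, and fell by 0.78 on the log2 scale (SE 0.17; limma adjusted p 0.036). It was at 570.1, 652 and 770.1 in the E2+3-MC rats and at 767, 928 and 948 in the 3-MC rats. Slc25a1, which exports citrate to the cytosol, was at 289, 301 and 327 in the E2 rats, against 475, 475 and 724 in the vehicle rats, and fell by 0.81 (SE 0.17; adjusted p 0.0282). Me1, the cytosolic malic enzyme that makes NADPH for fatty acid synthesis, was at 464, 427 and 455 in the E2 rats, against 980.2, 590.4 and 1495 in the vehicle rats, and fell by 1.06 (SE 0.23; adjusted p 0.0364). The vehicle rats spread widely for Me1, but none reached the E2 rats. The calls held in 6 of the 12 fits that left out 1 rat for Mpc1 (adjusted p 0.0171 to 0.177), in 8 for Slc25a1 (0.025 to 0.133) and in 4 for Me1 (0.000937 to 0.168). They were lost without any one of the E2 rats or vehicle rat 3 for all 3 genes, without vehicle rat 1 or E2+3-MC rat 2 for Mpc1 and Me1, and without E2+3-MC rat 1 or 3 for Me1. The same 4 genes passed in the comparison of all rats with and without E2, which uses these rats again. In it the calls of Pc and Me1 held in all 12 fits that left out 1 rat. That of Slc25a1 held in 11, and that of Mpc1 in 4 (limma adjusted p up to 0.0848).

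Of 23 other genes of fatty acid oxidation that were tested, 0 passed for E2 against vehicle, with 1 higher and 4 lower at an unadjusted p under 0.05 in limma (6.82% and 4.89% of all probe sets). Acacb, the mitochondrial acetyl-CoA carboxylase that makes the malonyl-CoA acting on carnitine palmitoyltransferase, was at 311, 207 and 311 in the E2+3-MC rats and at 397, 341 and 308 in the E2 rats, against 178, 170.2 and 144 in the 3-MC rats and 206, 284 and 209 in the vehicle rats. It passed when all rats with E2 were set against all without, with a log2 difference of 0.62 (SE 0.13; limma adjusted p 0.0262); leaving out 1 rat kept the call in 5 of 12 fits (adjusted p 0.00875 to 0.0822), and it was lost without vehicle rat 1 or 3, E2 rat 1 or 2, 3-MC rat 3, or E2+3-MC rat 1 or 3. Of 20 regulators, 1 rose and 1 fell with E2 against vehicle (1.3% and 0.287% of all probe sets). Ucp2, a carrier of the inner membrane, was at 3329.6, 2929.7 and 2924 in the E2 rats, against 1369, 1606 and 2157 in the vehicle rats, and rose by 0.86 (SE 0.17; adjusted p 0.0275). Pparg, the nuclear receptor of fat cells, was at 281, 314 and 329.9 in the E2 rats, against 783, 635 and 528 in the vehicle rats, and fell by 1.02 (SE 0.19; adjusted p 0.0157). Without 1 rat, Ucp2 passed in 7 of 12 fits (adjusted p up to 0.131; lost without vehicle rat 1 or 2 or any one of the E2 rats) and Pparg in 9 (up to 0.0868; lost without vehicle rat 1 or E2 rat 1 or 2). Of 22 respiratory chain subunits 0 passed, and 19 had negative differences, with a median of -0.15, where the median of all probe sets was 0.02.

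Markers of the cell types of the gland differed with E2 as well. Of 10 markers of luminal epithelium, 5 rose with E2 against vehicle (Krt18, Cdh1, Cldn3, Cldn7 and Prlr; 1.3% of all probe sets rose), and their summed intensity was 8293 to 10544 in the E2 rats, against 5211 to 5887 in the vehicle rats. Of 11 white adipocyte markers, 3 fell (Retn, Lpl and Pparg; 0.287% of all probe sets fell), with a median log2 difference of -0.34 and sums of 19790 to 22692 in the E2 rats, against 24610 to 29439 in the vehicle rats. With 3-MC, the epithelial sums were 6107 to 7851 in the E2+3-MC rats, against 5261 to 7281 in the 3-MC rats, and the adipocyte sums were 21299 to 29428 in the E2+3-MC rats, against 24327 to 29647 in the 3-MC rats. None of the 4 endothelial and 6 fibroblast markers passed for E2 against vehicle, but 4 of the 4 and 3 of the 6 were lower at an unadjusted p under 0.05 in limma (4.89% of all probe sets), and their medians were -0.50 and -0.49. Of 3 basal epithelial markers Krt14 rose (log2 difference 1.36, limma adjusted p 0.0272), of 5 macrophage markers Cd14 rose (0.84, adjusted p 0.037), and 0 of 3 lymphocyte markers passed, with medians of 0.03, -0.35 and -0.35. For E2+3-MC against E2 the macrophage and lymphocyte medians were 0.63 and 1.07, with 2 of 5 and 3 of 3 markers higher at an unadjusted p under 0.05 in limma (5.99% of all probe sets) and 0 passing (0% of all). Among the 10 markers that passed for E2 against vehicle, Prlr and Retn did so in all 12 fits that left out 1 rat. The other 8 did so in 5 to 9 of 12, and each lost its call when E2 rat 1, E2 rat 2 or rat 1 of the vehicle group was missing; for some the call was also lost without vehicle rat 2 or 3, E2 rat 3, or E2+3-MC rat 1 or 3. The part of the cell types in the differences of the oxidation genes was not tested.

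The sum of 13 skeletal muscle markers was 1314 to 7716 in the E2 rats, against 674 to 40081 in the vehicle rats, and 872 to 2422 in the E2+3-MC rats, against 721 to 29111 in the 3-MC rats. Acta1 differed 82.9-fold between the highest and the lowest rat, and Ckm, at 179, 308 and 45.5 in the E2+3-MC rats, 754, 173 and 415 in the E2 rats, 2018, 3207 and 119 in the 3-MC rats, and 2837, 4448 and 14.7 in the vehicle rats, 303-fold. The 37 oxidation genes did not share this spread. In a limma model with the 4 group means and the log2 level of Acta1, 0 of the 37 genes had a slope on Acta1 at an adjusted p under 0.05, against 0.385% of all probe sets (0.364% positive and 0.0214% negative), and 1, Acads, had an unadjusted p under 0.05. The slopes ran from -0.065 for Acads to 0.054 for Eci1, with a median of 0.019, where 1 would mean a change in proportion to Acta1. Of 12 other muscle markers 11 passed, with a median slope of 1.0. With Ckm in place of Acta1, 0 of the 37 genes passed (0.428% of all probe sets, 0.389% positive and 0.0385% negative) and the median slope was 0.014. Adding Acta1 as a covariate moved the median log2 difference of the 37 genes for E2+3-MC against vehicle from -0.11 to -0.05. The median of all probe sets moved from 0.07 to 0.04. For E2 against vehicle the median of the 37 genes moved from -0.11 to -0.09, and for E2+3-MC against 3-MC from -0.21 to -0.18.

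**Figure D4:**
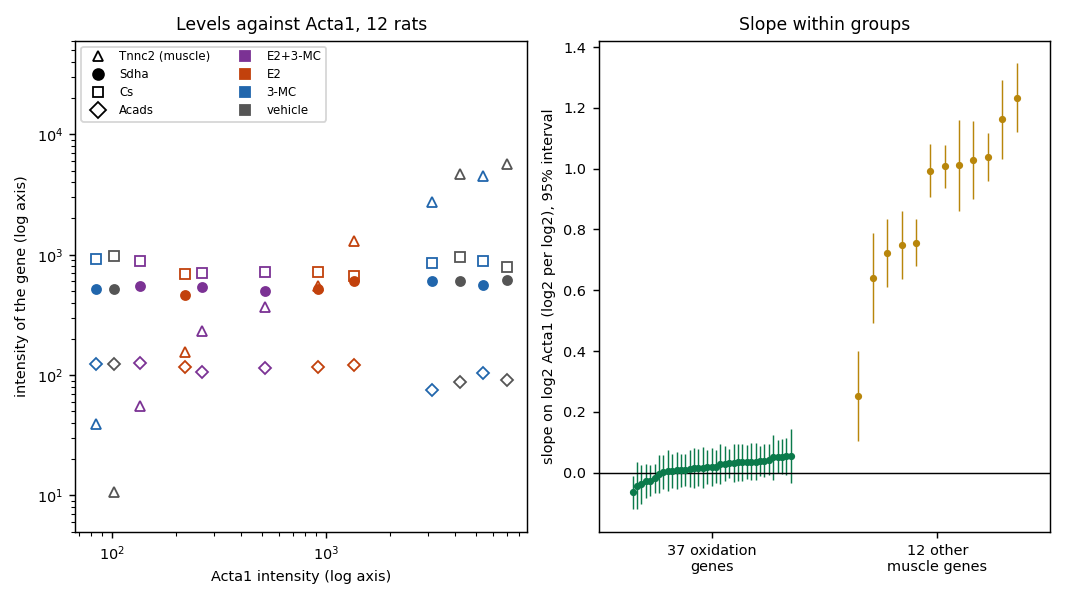
Left, intensity of Tnnc2, Sdha, Cs and Acads against intensity of Acta1 in the 12 rats, both axes logarithmic; right, slope of log2 level on log2 Acta1 within groups with the 95% interval, for the 37 genes and for 12 other muscle markers. Tnnc2, a muscle troponin, climbs with Acta1 over its whole range, the 3 oxidation genes stay nearly level, and the slopes of the 37 genes lie between -0.065 and 0.054.

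Of 3 mitochondrial genes with a muscle isoform 2 followed. Cox6a2 and Cox8b, cytochrome oxidase subunits of muscle and brown fat, had slopes on Acta1 of 0.84 and 1.04 (adjusted p 2.26e-08 and 1.64e-08 in limma). Cpt1b, the muscle counterpart of Cpt1a, had a slope of 0.078 (adjusted p 0.527). Pdk4, a kinase that switches off pyruvate dehydrogenase and is abundant in muscle, had 0.29 on Acta1 (adjusted p 0.0964) and 0.30 on Ckm (adjusted p 0.0144). Its intensity was 1449.7, 942 and 1238 in the E2+3-MC rats, 1334, 824 and 1452 in the E2 rats, 1016, 895 and 626 in the 3-MC rats, and 1263, 1501 and 190.5 in the vehicle rats, with the lowest value in the vehicle rat that also had the lowest Ckm. Pdk4 was the only 1 of 21 other genes of the TCA cycle and pyruvate entry to pass on Ckm (0.389% of all probe sets passed with a positive slope). The median slope of the 21 was -0.017 on Acta1 and -0.019 on Ckm. At an unadjusted p under 0.05 in limma, 1 was positive and 4 negative on Acta1, and 1 positive and 5 negative on Ckm. Over all 23370 probe sets these counts were 437 and 1403 on Acta1, and 395 and 1442 on Ckm.

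As a description over the 12 rats, the Pearson correlation of the 37 genes with Acta1 on the log2 scale had a median of 0.31 and was positive for 33, whereas the median over all probe sets was -0.15 and 35.3% were positive. On deviations from the group means the median of the 37 genes was 0.28, against -0.13 over all probe sets. Without the 2 rats farthest from the median Acta1 level it was 0.30, while the median over all probe sets changed sign to 0.07. The highest value was that of Sdha (r = 0.72, permutation p 0.0108, adjusted p 0.366; rho = 0.76, permutation p 0.00651), with 0.69 both without those 2 rats and within groups. Idh3b, Acadm and Idh3a followed with 0.71, 0.67 and 0.58. The lowest was that of Acads (r = -0.75, permutation p 0.00368, adjusted p 0.251; rho = -0.82, permutation p 0.00221), with -0.77 without those 2 rats and -0.74 within groups. Cpt1a, Acaa2 and Cs came next with -0.49, -0.10 and -0.00. At an unadjusted p under 0.05 there were 5 of the 37 genes (10.1% of all probe sets) and after adjustment 0, against 75 of 23370 probe sets. With Ckm the median was 0.30. The points share their arrays and treatment groups, and the slopes that go with these correlations are those given above.

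Most of the genes varied together between rats, but pairs of other probe sets were not computed. Whether the 37 genes differ in this from other genes was not tested. Over the 666 pairs among the 37 genes the median Pearson correlation over the 12 rats was 0.48, and 537 pairs were positive; on deviations from the group means the median was 0.53, and with each array centred on its median it was 0.52. Within the pyruvate dehydrogenase complex Pdhb and Dlat had 0.93, Pdha1 and Pdhb 0.89, and Pdha1 and Dlat 0.89, and on deviations from the group means 0.73, 0.67 and 0.60. Hadha and Hadhb, which share promoter sequence as shown above, had r = 0.63 (permutation p 0.0304, adjusted over 666 pairs 0.0849) and rho = 0.50 (permutation p 0.104, adjusted 0.216), with 0.74 without the 2 rats farthest from the median of Hadha and 0.72 on deviations from the group means. These are descriptions over rats that share groups and arrays.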

How the data were processed

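Mammary gland RNA of 12 rats, 1 Affymetrix Rat Gene 1.0 ST array per rat, was analysed. The deposited values are linear intensity per probe set, summarised by the authors with PLIER in Affymetrix Expression Console. The study's methods name quantile normalisation, a baseline set to the controls and a filter at the 20th percentile, but the deposited array medians differ and the values are not centred on the controls, so they were used as deposited. Intensity carries no read depth, so precision rests on the 3 arrays of each group.

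Values were analysed as log2(intensity + 16) after removal of probe sets at or under the 20th percentile of mean level. Probe sets with 1 gene symbol numbered 15310, those with several 323 and those unnamed here 13581. One model holding the 4 group means was fitted to all 12 arrays with limma 3.58.1 in R 4.3.3, with moderated variances and Benjamini-Hochberg adjustment over 23371 probe sets. A gene passed at an adjusted p under 0.05 with at least 1.5-fold. Slopes on Acta1 and Ckm came from the same model with the marker added, and permutation p-values of correlations from 100000 draws in Python 3.11.15 with numpy 2.4.6. The script of the fit was tested on simulated data. Figures were drawn with matplotlib 3.10.9.

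Values of every rat are given for the genes that passed, the largest positive and negative difference of each comparison, the 4 highest and 4 lowest correlations with Acta1, and Cs, Cpt1a, Cpt2, Sdha, Ogdh, Pdha1, Acadm, Hadha and Acadvl; from other lists, for up to 6 genes that passed. The genes, lists and tests were chosen with earlier results of these data known. The labels call the 3 samples of a group separate rats. Same-numbered vehicle and 3-MC rats deviated together from their group means (r = 0.341, 0.442 and 0.564), a pairing seen in the data and not stated in the labels. For same-numbered E2 and E2+3-MC rats r was 0.130, 0.0809 and 0.137. No other pair of groups had a positive r in all 3 numbers. Promoters came from RefSeq (GRCr8); the genome build of the array annotation is not given in the sources used here.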

Additional observations from a re-analysis of the deposited data

How the results depend on the processing

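With 3 rats a group, the median standard error of a difference was 0.15 on the log2 scale. Of 405 values of the main results recomputed under other settings 384 stayed within 1.5 times the count or within a spread estimated from the rats and 21 did not. For the median correlations that spread was computed from the same fits that left out 1 rat, so their agreement is not separate evidence. Of 574 further values 503 were labelled the same, 34 moved, 24 weaker and 13 stronger. The recomputed differences of Acaa2, Acsl1, Cpt1a, Echs1, Pdhb and Sdhd kept their direction. They had been picked from these same data as the largest of a comparison or as passing, so a kept direction is weak evidence of stability. Medians of the 37 genes near 0 changed sign: for E2+3-MC against E2 the median of 0.04 became -0.02 after median centring and -0.09 to 0.09 when 1 rat was left out, and for 3-MC over both E2 states 0.05 became -0.01 after median centring. For 3-MC against vehicle 0.10 became 0.00 after renewed quantile normalisation. Against 0 genes for E2 against vehicle, 2 passed after renewed quantile normalisation (Cpt1a, Acsl1), 2 after median centring (Cpt1a, Pdhb), 3 with array weights, 1 with only the arrays of both groups (Cpt1a), 3 by the methods' t-test without adjustment (0 after it) and 0 to 2 when 1 rat was left out. The unadjusted methods' t-test also passed 1 gene for E2+3-MC against vehicle (Cpt1a) and 1 for E2+3-MC against 3-MC (Pdhb). For all rats with E2 against all without, the count of 3 became 1 without a filter, 1 with a pseudocount of 1, 1 with Acta1 as a covariate and 1 to 3 when 1 rat was left out. With the replicate block the count was 0 for each comparison of the design and 2 of 3 for all rats with E2 against all without, where Acsl1 was lost (adjusted p 0.0541); the block changed no other call of the genes named by rule. Over all probe sets, the count for E2 against vehicle was 370, with 7 (adjusted methods' t-test) to 703 (unadjusted) under other settings and 85 to 447 without 1 rat; for E2+3-MC against vehicle 38 (0 to 269; 22 to 85), for E2+3-MC against 3-MC 26 (0 to 125; 19 to 42), for E2+3-MC against E2 0 (0 to 486; 0 to 10), for 3-MC against vehicle 0 (0 to 32; 0 to 0), and for all rats with E2 against all without 261 (164 to 390; 147 to 401). The share of higher calls for E2 against vehicle was 81.9%, with 71.2% for array weights, 70.4% by the unadjusted and 100% by the adjusted methods' t-test, 63.2% without vehicle rat 2 and 69.6% without vehicle rat 3. The median correlation with Acta1 was 0.31, with 0.28 to 0.52 under other settings and 0.23 to 0.45 without 1 rat, and 0 slopes on Acta1 passed under any of them. The causes of these differences were not tested.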
